A study of Mus musculus with 2 samples.

Results

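Transcript levels of 10 genes that encode precursors of secreted peptides made in the hypothalamus were compared between refed Crtc1 knockout mice and refed wild-type mice. The genes were Sst, Cck, Tac1, Penk, Nts, Gal, Vip, Crh, Adcyap1 and Nucb2, taken by name, with every probe set that the platform annotation pairs with 1 of them alone. They are 10 of 18193 genes that have such a probe set on the array. They had 12 probe sets, 2 each for Tac1 and Adcyap1 and 1 for each of the other 8 genes. Both groups were males aged 12 weeks that went without food for 18 h and then had access to it for 6 h. The knockout group lacked Crtc1 and the other was wild type, and RNA of 3 mice per genotype was combined onto 1 array, so there were 2 arrays in all. The strain, the type of Crtc1 allele and whether the animals were littermates were not stated in the labels.

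Neuropeptides are made as larger precursors in the endoplasmic reticulum, cut by prohormone convertases inside dense-core granules and released by activity to act on G protein-coupled receptors. In the hypothalamus such peptides act as neurohormones that reach the pituitary and as modulators between feeding, stress and clock neurons. CREB binds the cAMP response element, a DNA motif first described in the somatostatin gene, and Crtc1 is a coactivator that joins CREB there when calcium and cAMP rise. Several of the genes described here, among them Sst, Vip and Crh, are textbook examples of genes that cAMP induces.

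The letters of that element are shown because they are where CREB and Crtc1 are known to act, although neither factor was measured at these promoters in these data. RefSeq promoters of assembly GRCm38.p6 were found for 8 of the 10 genes. Penk and Crh had no entry in the table used. In the 250 bases before the annotated start, both strands were searched for the 8-letter element TGACGTCA, for 7 of its letters, TGACGTC, and for the 5-letter core of it, TGACG. The shorter motifs lie within the longer ones, so a match to the longest is also a match to both others. Of 32851 promoter windows of the same length in the table, 1.55% held the 8-letter element, 2.78% the 7-letter form and 17.8% the core. Among the 8 genes, 1 (Sst) held the 8-letter element, 3 (Sst, Vip and Adcyap1) the 7-letter form and 6 the core. Below are the 170 bases before the start, 5′ to 3′ on the strand of the gene, for the 3 genes with the longer forms, for Cck and Tac1 with a core near the start, and for Nts and Gal, which differed most between the pools. Capitals mark the matched motif letters.
Sst, chr16:23890845-23891014, minus strand: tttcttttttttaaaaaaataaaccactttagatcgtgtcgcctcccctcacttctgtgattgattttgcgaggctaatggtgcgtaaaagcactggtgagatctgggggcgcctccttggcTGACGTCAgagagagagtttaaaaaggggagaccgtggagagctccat
Vip, chr10:5639048-5639217, plus strand: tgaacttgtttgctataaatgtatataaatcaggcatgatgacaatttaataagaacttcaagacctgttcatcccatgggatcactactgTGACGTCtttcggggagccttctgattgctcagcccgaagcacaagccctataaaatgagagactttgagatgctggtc
Adcyap1, chr17:93198847-93199016, plus strand: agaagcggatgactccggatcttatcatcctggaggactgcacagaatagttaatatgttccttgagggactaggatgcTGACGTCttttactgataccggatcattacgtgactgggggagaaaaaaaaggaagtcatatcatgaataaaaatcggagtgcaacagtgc
Cck, chr9:121495695-121495864, minus strand: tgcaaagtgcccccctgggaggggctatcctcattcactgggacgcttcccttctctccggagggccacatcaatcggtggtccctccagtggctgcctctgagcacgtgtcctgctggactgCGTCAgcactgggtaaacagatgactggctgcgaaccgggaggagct
Tac1, chr6:7554891-7555060, plus strand: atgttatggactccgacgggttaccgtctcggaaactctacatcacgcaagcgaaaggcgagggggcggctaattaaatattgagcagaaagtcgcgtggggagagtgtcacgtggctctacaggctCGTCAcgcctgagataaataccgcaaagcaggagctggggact
Nts, chr10:102490419-102490588, minus strand: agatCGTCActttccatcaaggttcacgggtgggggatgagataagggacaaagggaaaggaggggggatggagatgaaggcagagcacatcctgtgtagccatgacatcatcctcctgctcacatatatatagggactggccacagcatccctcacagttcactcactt
Gal, chr19:3414545-3414714, minus strand: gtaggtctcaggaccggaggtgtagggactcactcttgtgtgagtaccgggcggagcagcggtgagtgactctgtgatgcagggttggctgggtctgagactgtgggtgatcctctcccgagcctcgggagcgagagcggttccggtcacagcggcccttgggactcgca

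The 8-letter element of Sst began 48 bases before the start and the 7-letter form of Vip 79 bases before it. That of Adcyap1 began 91 bases before the first of its 2 annotated starts, which is 242 bases before the second. Cores began 47 bases before the start of Cck, 197 and 43 bases before that of Tac1 and 166 bases before that of Nts. No core was found in the window of Gal or in that of Nucb2, which says only that these letters are not there.

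**Figure D1:**
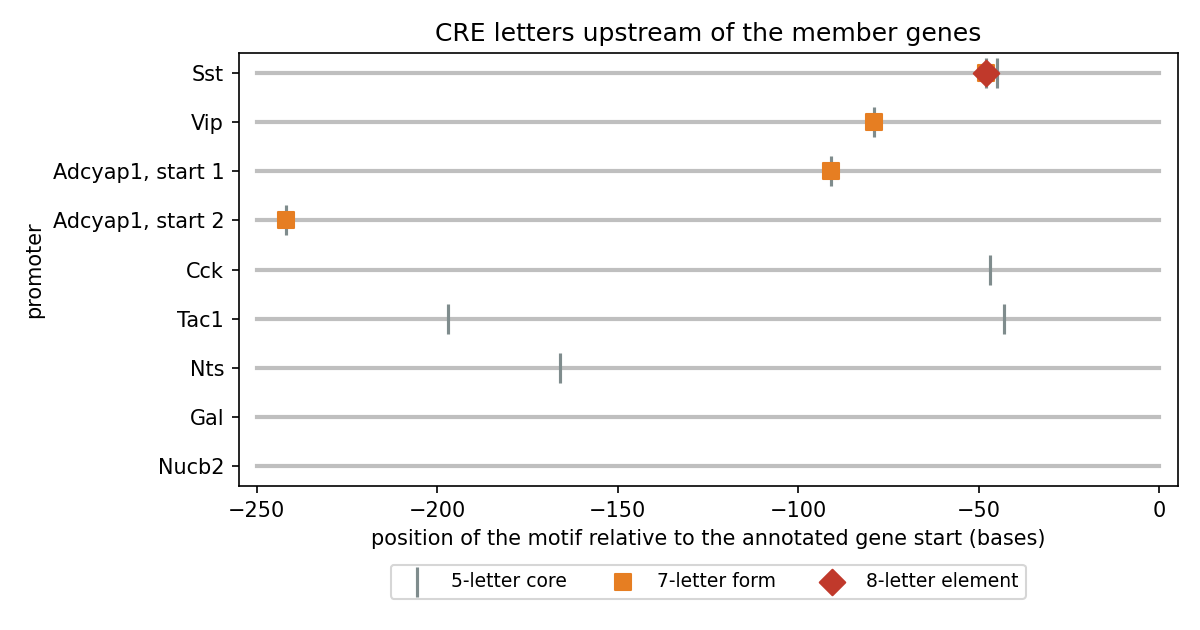
Positions of the cAMP response element letters in the 250 bases before the annotated start of each gene, with the distance from the start in bases on the horizontal axis and 1 line per promoter (Adcyap1 has 2 starts). Sst alone of these promoters held the 8-letter element, Vip and Adcyap1 held 7 of its letters, and the lines of Gal and Nucb2 carry no mark.

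The deposited values are linear probe-set signals. Values under the 30th percentile of an array were raised to it (20.5 for knockout, 20.2 for wild type) before log2 was taken. Probe sets were called measured from a mean log2 signal of 5.71 over the pair of arrays, the median of all probe sets, which corresponds to a signal of 52.3. By this limit 10 of the 12 probe sets and 9 of the 10 genes were measured, and Crh was the gene that was not. A gene took the value of its brightest measured probe set, and differences are log2 values with the wild type subtracted from the knockout. With 1 pooled array per genotype there was no test and no p-value. The error given beside a difference is the array error, the SD between the log2 differences of measured probe sets of 1 gene. All measured probe sets of a gene entered its mean, and deviations were pooled over genes by the signal of each probe set. The array error holds no spread between mice. The signal of 1 probe set is not compared with that of another, and in pairs of signals the knockout pool comes first. In tissue RNA, fewer cells that make a peptide and less RNA per cell cannot be told apart.

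Crtc1 itself was lower in the pool labelled knockout. Its brightest probe set read 85.1 against 631 in the wild type (log2 difference -2.89, array error 0.26). The array medians were 54.4 and 52.2, 0.06 apart on the log2 scale. Over all 11312 measured genes the median difference was 0.00. Markers of brain regions and cell types that bear on the precursor genes are given after them.

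The 9 measured precursor genes went both ways between the pools. Of these genes 4 were higher and 5 lower in the knockout pool, with a median difference of -0.03 and a range from -0.50 (Gal) to 0.48 (Nts). None of the 9 reached 1.5-fold, but only 3.5% of all measured genes did, so this does not set the precursors apart. At least 1.2-fold apart were 4 of the 9, against 21.9% of all measured genes, with 2 higher (Nts and Nucb2; background 11.9%) and 2 lower (Gal and Vip; background 9.97%). With median centring 1 was higher (Nts) and 3 were lower (Gal, Vip and Sst), against 8.73% and 14.6% of all measured genes. With quantile normalization or loess they were Nts higher and Gal and Vip lower. The share of genes past 1.2-fold depended on signal, at 43.2% for a mean log2 signal under 7, 27.6% from 7 to 8, 17.0% from 8 to 9, 11.3% from 9 to 10 and 4.69% from 10 upward. By single probe sets, 4 of the 10 measured differed by less than their array error.

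**Figure D2:**
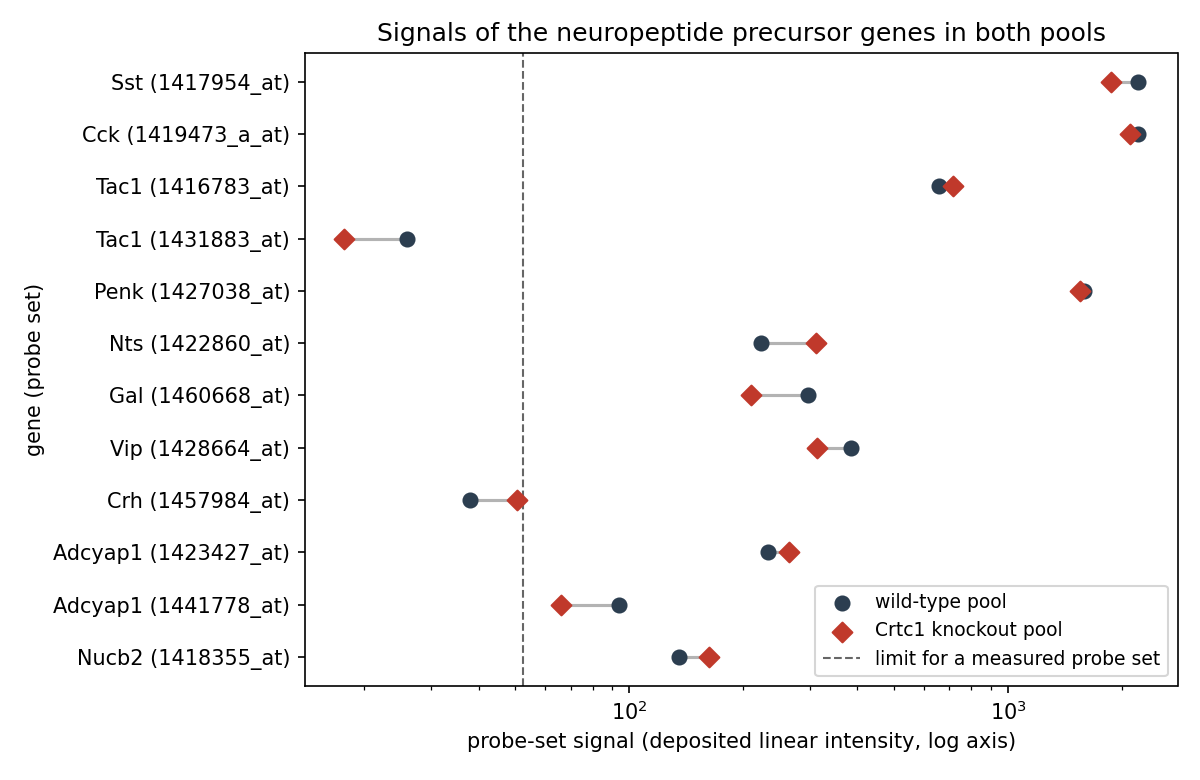
Deposited signal of each of the 12 probe sets (horizontal log axis) in the wild-type pool (circles) and the Crtc1 knockout pool (diamonds), with the limit for a measured probe set as a dashed line; each point is 1 array. The widest gaps above the limit are those of Nts (312 and 223), Gal (209.8 and 296.6) and the dimmer Adcyap1 probe set (66 and 94.1), knockout first.

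Among peptides of feeding and reward circuits, Gal and Nts differed most and in opposite directions. Gal encodes galanin, a peptide of arcuate, dorsomedial and preoptic neurons that promotes feeding. Its probe set 1460668_at read 209.8 in the knockout and 296.6 in the wild-type pool. The knockout pool was lower by 1.41-fold, a difference of -0.50 that is 1.90 times the array error of 0.26. Nts encodes neurotensin, a peptide of lateral hypothalamic and preoptic neurons that reduces feeding. Its probe set 1422860_at read 312 in the knockout and 223 in the wild-type pool. The knockout pool was higher by 1.40-fold, a difference of 0.48 and 2.12 times the array error of 0.23. Across the 11 settings Gal ranged from -0.56 to -0.47 and Nts from 0.42 to 0.48, and neither changed direction nor fell under 1.2-fold. Only the alternative scalings, and 16 added to each signal instead of a floor, could move these values. The only probe set of each gene passed every floor and filter, so the other settings returned the reported value. They are therefore no check on either difference.

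Cck, Tac1 and Penk, whose precursors give peptides used widely across the forebrain, differed little. Cck encodes cholecystokinin, a satiety peptide that is also abundant in cortex. It read 2102.8 in the knockout and 2202.7 in the wild-type pool (difference -0.07, array error 0.16). Penk encodes proenkephalin, the source of the opioid enkephalins, and read 1553.3 and 1585.3 (-0.03, array error 0.16). Tac1 encodes the precursor of substance P and neurokinin A. By probe set 1416783_at it read 717.5 in the knockout and 659 in the wild-type pool (0.12, array error 0.21). Its other probe set, 1431883_at, read 17.7 and 25.9, under the limit for a measured probe set and under the floor in the knockout pool. All 3 brightest probe sets thus differed by less than their array error.

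The genes of the secretin family and somatostatin carry the longer forms of the element shown above. Sst and Vip were lower in the knockout pool, and the probe sets of Adcyap1 had opposite signs. Sst encodes somatostatin, which inhibits growth hormone release from the pituitary. Its probe set 1417954_at read 1874.5 in the knockout and 2199.4 in the wild-type pool. The knockout pool was lower by 1.17-fold, a difference of -0.23 against an array error of 0.16. Bright genes varied little between the pools, with an SD of 0.13 over the 1790 genes with a mean log2 signal of 10 or more. Vip encodes vasoactive intestinal peptide, which couples clock neurons of the suprachiasmatic nucleus to each other. Its probe set 1428664_at read 312.5 and 384.3, 1.23-fold lower in the knockout pool (-0.30, array error 0.23). The SD over the 2666 genes at a mean log2 signal from 8 to 9 was 0.21.

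Adcyap1, which encodes PACAP, a peptide close to VIP that raises cAMP, had no settled direction. Its brighter probe set 1423427_at read 264.9 in the knockout and 232.2 in the wild-type pool (difference 0.19, array error 0.26). Its dimmer probe set 1441778_at read 66 and 94.1 (-0.51, array error 0.32), so the pools stood in the opposite order. The mean of both probe sets was -0.16. Opposite signs were common on these arrays, in 45.5% of the 3100 genes with exactly 2 measured probe sets. The 3 genes with the 7-letter form (Sst, Vip and Adcyap1) thus had brightest-probe differences of -0.23, -0.30 and 0.19. With the probe sets of Adcyap1 averaged, all 3 were lower in the knockout pool. That average, -0.16, was smaller than the array error of either probe set. The differences of the 3 genes with only a core (Cck, Tac1 and Nts) were -0.07, 0.12 and 0.48, and those of the 2 genes with none (Gal and Nucb2) were -0.50 and 0.27.

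Crh and Nucb2 were the remaining genes. Crh encodes corticotropin-releasing hormone, which drives the pituitary and adrenal stress axis from the paraventricular nucleus. Its only probe set, 1457984_at, read 50.5 in the knockout and 37.9 in the wild-type pool, a mean log2 signal of 5.45 and so under the limit. Its difference of 0.41 (1.33-fold higher) is given as a value at low signal, where the array error was 0.32, and it enters no count. Nucb2 encodes nucleobindin 2, a calcium-binding protein that is the precursor of nesfatin-1, a peptide that lowers food intake. Its probe set 1418355_at read 162.9 and 135.2, higher in the knockout pool (0.27, array error 0.26). Nucb2 lay at the limit of 1.2-fold (0.26 on the log2 scale) and was under it, at 0.21 to 0.24, with each alternative scaling and with a pseudocount.

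**Figure D3:**
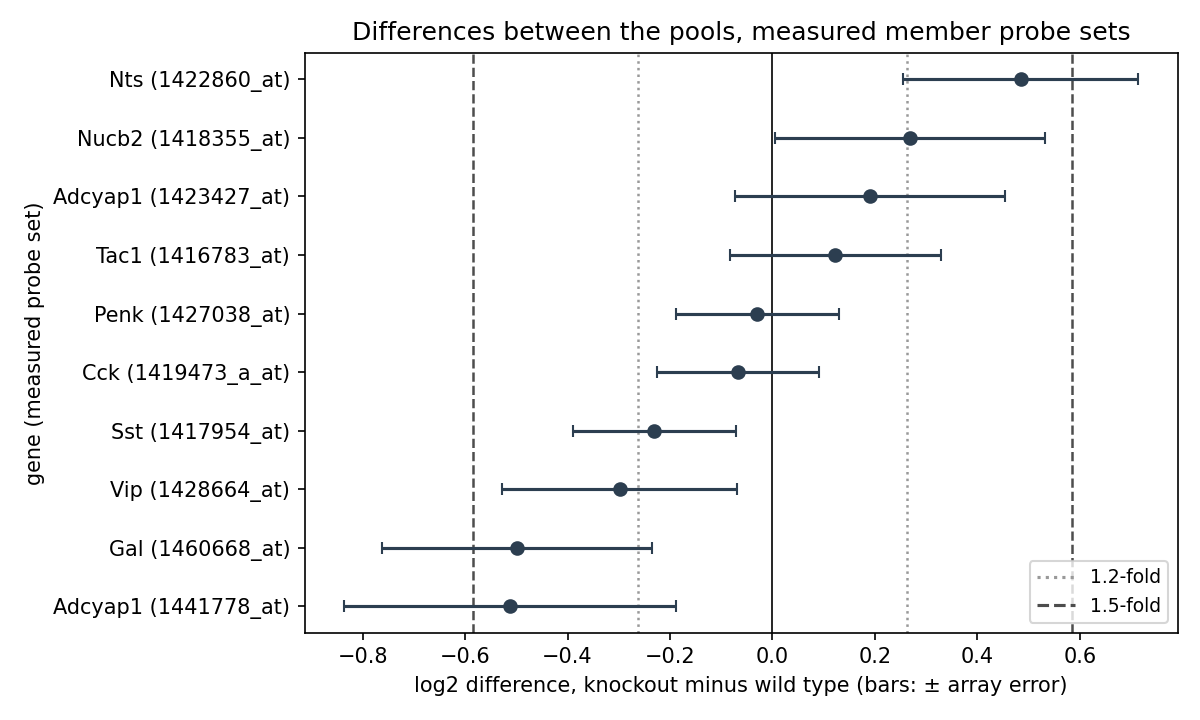
Log2 difference (knockout minus wild type) of the 10 measured probe sets with the array error as bars, dotted lines at 1.2-fold and dashed lines at 1.5-fold. No point lies beyond 1.5-fold, and both Adcyap1 probe sets lie on opposite sides of 0, at 0.19 and -0.51.

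Of the receptors of these peptides, Vipr2 differed most between the pools. Of 24 receptor genes 12 were measured, 5 higher and 7 lower, with a median of -0.07 against 0.00 over all measured genes. The gene at least 1.5-fold apart was Vipr2, 1 of 12, against 3.5% of all measured genes. Vipr2 encodes VPAC2, a receptor for both VIP and PACAP that is prominent in the suprachiasmatic nucleus. By its probe set 1421391_at it read 38.7 in the knockout and 74.4 in the wild-type pool. The knockout pool was lower by 1.92-fold (-0.94, array error 0.32). This rests on a dim signal: the knockout value was under 52.3, so Vipr2 counted as measured only through the wild-type pool. The 3.5% covers all signals, while genes with a mean log2 signal under 7, as here, had an SD of 0.37. With a floor at the 50th percentile the Vipr2 difference was -0.45, under 1.5-fold, and with a filter at the 70th percentile Vipr2 was not measured. The other receptor of that pair, Vipr1, was under the limit at 34.3 and 33.4, and the PACAP receptor gene Adcyap1r1 read 1000.3 and 937.5 (0.09).

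The next receptors in each direction differed less. Cckbr, the cholecystokinin B receptor gene of the brain, read 521.6 in the knockout and 427.9 in the wild-type pool (0.29, array error 0.23), and its dimmer probe set differed by -0.03. Sstr2, a somatostatin receptor gene, read 217 and 186.8 (0.22, array error 0.26). Ntsr1, the high-affinity neurotensin receptor gene, read 94.9 and 111.6 (-0.23, array error 0.32). The last 2 differences were within the array error. The galanin receptor genes Galr1 and Galr2 were under the floor on both arrays and Galr3 had no probe set of its own, so no receptor of galanin was measured here. Crhbp, which encodes the binding protein of corticotropin-releasing hormone, read 164.7 and 198.2 (-0.27, array error 0.26).

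Genes of peptide processing also went both ways. Of 11 genes 10 were measured, 5 higher and 5 lower, with a median of 0.07. Pcsk5, a prohormone convertase gene, read 85.3 in the knockout and 46.6 in the wild-type pool, 1.83-fold higher (0.87, array error 0.32), and its dimmer probe set was 1.27-fold higher. Its signal too was dim, with the wild-type value under 52.3, and both probe sets are of the kind that can match several transcripts, so Pcsk5 was not measured once such probe sets were left out. Furin, a convertase gene of the trans-Golgi network, read 109.9 and 88.1 (0.32). Pcsk1n, which encodes proSAAS, an inhibitor of the convertase PC1/3, read 3851.2 in the knockout and 5059.1 in the wild-type pool. It was 1.31-fold lower (-0.39, array error 0.16) at a bright signal. Ctsl, a cathepsin gene linked to enkephalin processing, read 1115 and 1230.5 (-0.14), while Cpe, the carboxypeptidase that trims peptide ends, differed by -0.02 and Pcsk1 by -0.10.

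Of 12 genes of related precursors 6 were measured, and 4 were lower and 2 higher in the knockout pool under each scaling. Their median was -0.29, and 4 of the 6 were at least 1.2-fold lower, against 9.97% of all measured genes. Pnoc, the precursor gene of the opioid-like peptide nociceptin, read 145.6 in the knockout and 189.3 in the wild-type pool (-0.38, array error 0.26). Tac2, the neurokinin B gene and a relative of Tac1, read 233.6 and 295 (-0.34, array error 0.23). Nucb1, the paralog of Nucb2, read 739.4 and 907.7 (-0.30, array error 0.21), opposite in direction to Nucb2. Pdyn, the dynorphin gene, read 59.5 and 72.4 (-0.28, array error 0.32), at a mean log2 signal under 7, where 43.2% of genes were past 1.2-fold in either direction. The 2 higher genes, Nmb and Grp, which encode bombesin-like peptides, differed by 0.12 and 0.07.

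**Figure D4:**
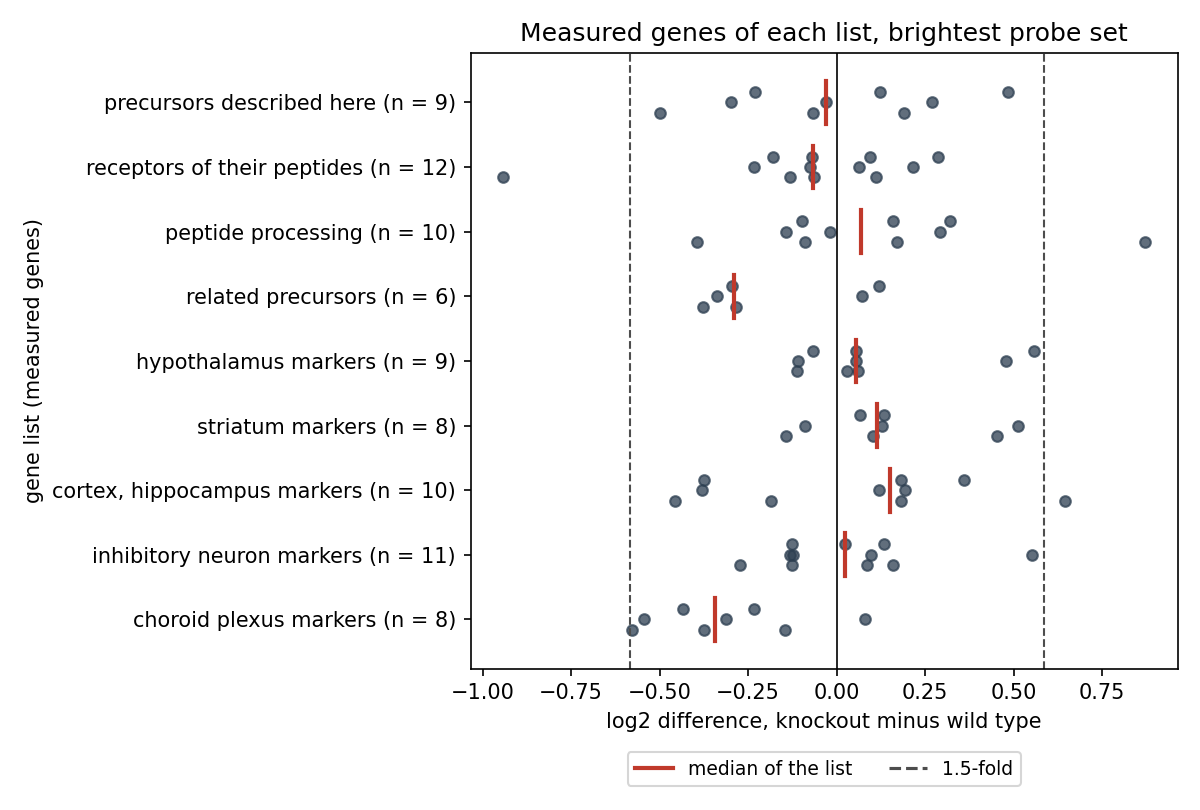
Log2 difference (knockout minus wild type) of each measured gene by its brightest probe set, for the 9 measured precursors and for 8 other gene lists; each point is 1 gene, red lines are list medians and dashed lines mark 1.5-fold. The precursors straddle 0 between -0.50 and 0.48, whereas the related precursors have a median of -0.29 and the choroid plexus markers one of -0.34.

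Several of these peptides are also made outside the hypothalamus, so markers of neighbouring regions are given beside them. Tac1 and Penk are abundant in striatum, where 8 of 10 listed markers were measured, 6 higher and 2 lower in the knockout pool with a median of 0.11 (0.06 with median centring). Their summed signal was 3632.6 in the knockout and 3428.3 in the wild-type pool. Sums of this kind are led by the brightest genes of a list. Cck is abundant in cortex, and of 12 cortex and hippocampus markers 10 were measured, 6 higher and 4 lower. Their median was 0.15 (0.09 with median centring) and their summed signals were 7491.2 and 6835.3. They ranged from -0.46 (Emx2) to 0.65 (Neurod6, 1.57-fold higher). At least 1.2-fold higher were 2 of the 10 and lower 3, against 11.9% and 9.97% of all measured genes. Sst and Vip are also made by cortical inhibitory neurons. The 11 inhibitory neuron markers, a list not restricted to cortex, were all measured, 6 higher and 5 lower. They ranged from -0.27 (Dlx2) to 0.55 (Dlx1), with a median of 0.02 (-0.04 with median centring). Their summed signals were 11073.7 and 10952. Of 19 hypothalamus markers 9 were measured, 6 higher and 3 lower with a median of 0.05 and summed signals of 7665.9 and 7063.3. With median centring 2 were higher and 7 lower, with a median of -0.01. The hypothalamic peptide genes among them went both ways. Avp, the vasopressin gene, read 1690.4 and 1148.9 (0.56, array error 0.16). Oxt, the oxytocin gene, read 969.2 and 695.3 (0.48, array error 0.21). Pmch, which encodes melanin-concentrating hormone, read 3340.7 and 3498.3 (-0.07, array error 0.16). Hcrt, the orexin gene, read 817.4 and 883.3 (-0.11, array error 0.21), and Trh read 156.4 and 150.7 (0.05, array error 0.26). The higher summed signal of the hypothalamus markers in the knockout pool rests on Avp and Oxt. The part of dissection in the differences of the precursor genes was not tested.

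Of the other lists, all 11 thalamus markers were measured, with a median of 0.06 (0.0034 with median centring) and summed signals of 12368.3 and 12483.4. The 8 pan-neuronal markers had a median of -0.04 and summed signals of 29204.3 and 29464.9, and the median was -0.10 with median centring and -0.0058 with quantile normalization. None of the 7 pituitary markers was measured. Choroid plexus markers were lower in 7 of 8 genes, against 5545 of all 11312 measured genes. At least 1.2-fold lower were 5 of the 8, against 9.97% of all measured genes. The median of the 8 was -0.34 (-0.40 with median centring). Their summed signals were 8896.1 in the knockout and 10049.5 in the wild-type pool, most of it from Ttr (7745 and 8570.7).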

How the data were processed

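RNA of the hypothalamus was measured on 2 single-colour Affymetrix arrays, 1 per genotype, each with RNA of 3 mice; 30 ug of total RNA gave the biotinylated target, per the labels' protocols. The deposited table holds 1 linear signal intensity per probe set and array. The summarising algorithm and scaling target are not stated in the labels. The mean without the lowest and highest 2% was 200.0 on both arrays, so the authors' intensity values appear scaled by 1 factor per array. Such a factor is the same for dim and bright signals. Differences between the pools were widest for genes with a mean log2 signal under 7, with an SD of 0.37.

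Of 45101 probe sets, 64 controls were left out, and 34945 were paired with 1 gene by the platform annotation GEO holds; symbols follow the RefSeq gene table (GRCm38.p6), matched by Entrez ID. Floor, limit for measured probe sets and array error (by mean log2 signal under 7, 7 to 8, 8 to 9, 9 to 10 and 10 upward) were computed with Python 3.11.15, pandas 2.3.3 and numpy 2.4.6. The calculation was tested on simulated data with 2-fold changes in genes of a mean log2 signal over 7 and equal noise at all signals. That test did not cover smaller differences or dimmer genes. The precision is limited by the number of arrays. Named genes were all 10 precursors, Crtc1, and from each of the receptor, processing and related-precursor lists the genes at least 1.5-fold apart and the 2 largest each way; other genes are named for their relation to these. Members and lists were chosen with earlier results of these data known. The alternatives were 3 scalings (median, quantile, and loess with span 0.3, by statsmodels 0.14.6), a lower and a higher floor (10th and 50th percentile), 16 added to each signal instead of a floor, 2 filters, averaged probe sets, and leaving out probe sets that can match several transcripts.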

Additional observations from a re-analysis of the deposited data

How the results depend on the processing

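Of 89 recomputed differences of single precursor genes under 10 alternatives, 87 moved by less than the array error. The others were Adcyap1, which went from 0.19 to -0.16 with averaged probe sets, and Crh, which was measured (0.41) only with no filter on dim probe sets. Many of the 87 could not move. For a gene with 1 measured probe set, a changed floor, filter, averaging or probe-set type returned the reported value or no value. The number of precursors at least 1.5-fold apart was 0 under each alternative. The share of all genes past 1.5-fold was also low, from 1.17% with a filter at the 70th percentile to 7.15% with no filter. The number of precursors at least 1.2-fold apart was 3 to 5 (reported, 4). Nucb2 was not measured with a filter at the 70th percentile, nor Cck once its only probe set, of the multi-transcript kind, was dropped. The median of the precursors ranged from -0.09 with median centring to 0.05 with no filter and without probe sets that can match several transcripts. The number of receptors at least 1.5-fold apart was 0 instead of 1 with a floor at the 50th percentile and with a filter at the 70th percentile, where Vipr2 is floored or not measured. Pcsk5 and Vipr2, picked for this after their values were seen, were recomputed under 7 of the settings, those of scaling and floor. Pcsk5 ranged from 0.69 to 0.87, and Vipr2 was lower in the knockout pool throughout, by at least 1.37-fold. No paired analysis was possible because each genotype is 1 pooled array, and no replicate could be left out. Dim signals limit what can be said of Crh, Vipr2, Pcsk5 and Cort.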

Other observations

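Cort, which encodes cortistatin, a peptide close to somatostatin that acts on the same receptors, was chosen here after its values were seen. It counted as not measured because its mean over both arrays was under the limit. Its probe set 1449820_at read 13.2 in the knockout pool, under the floor, and 90.4 in the wild type. With the floor in place of the low value it was 4.41-fold lower in the knockout pool (-2.14), while Sst was 1.17-fold lower. Of 6881 genes with no measured probe set, 3 (0.0436%) were at least 4-fold apart by their brightest probe set, and 192 (2.79%) at least 2-fold. These shares are kept small by the limit: a probe set under it can be 4-fold apart only with 1 value close to the floor. They therefore do not show whether the Cort difference is unusual. The size of the Cort difference depends on the floor, from -0.73 with a floor at the 50th percentile to -2.78 with one at the 10th, and it was lower in the knockout pool in each of 7 settings of scaling and floor. Ghrh, which encodes growth hormone-releasing hormone, the hypothalamic counterpart of somatostatin, read 16.7 in the knockout pool, under the floor, and 43.4 in the wild type, also under 52.3, where measured probe sets begin. Each rests on 1 probe set and 1 array per genotype.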
